A study of Mus musculus with 8 samples.

Results

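The 10 genes described here lie beside Lrp1 on mouse chromosome 10: Arhgap9, Gli1, Inhbc, R3hdm2, Stac3, Ndufa4l2, Shmt2 and Nxph4 at lower coordinates than Lrp1, and Stat6 and Nab2 at higher coordinates. They were chosen by symbol for their position, not by their values, and are 10 of the 22520 genes in the deposited expression table. Of the 10, 6 were expressed high enough to be tested between LRP1 knockout (LRP1 KO) and wild-type (WT) endothelial cells, and 1 passed the test: Nxph4, the nearest neighbour of Lrp1, was lower in LRP1 KO. Nxph4 reached the level needed in its 4 WT libraries and in LRP1 KO 2 alone, so its call is described but not taken as support. The other 5 tested neighbours, Shmt2, Ndufa4l2, R3hdm2, Stat6 and Nab2, did not pass, and Stac3, Arhgap9, Gli1 and Inhbc were below the level needed for the test.

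LRP1, a relative of the low-density lipoprotein receptor, is a large endocytic receptor that also relays signals. Its neighbours have unrelated functions. STAT6 carries interleukin-4 and interleukin-13 signals to the nucleus, NAB2 is a corepressor of EGR transcription factors, SHMT2 is the mitochondrial enzyme that moves a carbon unit from serine to folate, NDUFA4L2 is a hypoxia-inducible mitochondrial protein, GLI1 is a transcription factor of the hedgehog pathway, and NXPH4 is a secreted glycoprotein of the neurexophilin family. Genes that sit together on a chromosome can share regulatory DNA, so the neighbours of a deleted gene are a usual place to look when its expression has been removed.

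RNA sequencing was performed on endothelial cells from C57BL/6 mice at postnatal day 14, with 4 WT and 4 LRP1 KO libraries. By their labels, all libraries were mixes of heart, liver and lung cells, whereas the study describes liver cells apart from heart and lung cells, so the organ source of a library is uncertain. Per the study's methods, both groups were littermates homozygous for a floxed Lrp1 allele (Lrp1 f/f). The floxed line is named there with both B6 and 129S7 as its strains. LRP1 KO mice also had 1 copy of Cdh5-CreER, a tamoxifen-inducible Cre recombinase driven by the promoter of the endothelial gene Cdh5, which the WT mice lacked. Beads carrying a PECAM-1 antibody were used to select the cells, and whether a library came from 1 mouse or from several is not given in the sources used here, so p-values measure the spread between these libraries. Levels are given as FPKM, a fragment count corrected for transcript length and library size, and were quantile normalized across the 8 libraries before deposit. Sequencing depth is therefore unknown.

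The endothelial label was checked against marker lists. In WT, 17 of 20 endothelial markers had a mean of at least 1 FPKM, and their summed level was 178 to 194 FPKM per library. Summed fibroblast markers were far higher, at 2502 to 3691 FPKM in WT and 2139 to 3349 in LRP1 KO. Sums over different lists do not give shares of cells, because a few abundant genes can fill a sum. The fibroblast list included Dcn, Col1a2, Col3a1 and Col1a1, named after their values were seen, with WT means of 922, 882, 536 and 499 FPKM. Summed macrophage markers were 102 to 126 FPKM in WT and 274 to 657 in LRP1 KO, and summed leukocyte markers 9.50 to 13.2 and 34.4 to 61.0. Summed pericyte and smooth muscle markers were 673 to 839 in WT and 1044 to 1629 in LRP1 KO. Summed endothelial markers were 644, 407, 476 and 184 FPKM in LRP1 KO libraries 1 to 4, so that LRP1 KO 4 lay within the WT range. LRP1 KO 4 also lay between the groups on the first principal component, which held 60.8% of the variance, at 0.10 against -24.1 to -12.9 in WT and 17.2 to 27.3 in the other LRP1 KO libraries. In bulk RNA, fewer cells of a type and less RNA per cell cannot be told apart.

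Positions below are from GENCODE M21 on GRCm38, the assembly that mm10 denotes. Lrp1 runs on the minus strand over chr10:127538161-127621148. The span from Arhgap9 to Nab2, chr10:127321964-127668568, is 346605 bp long and overlaps 18 annotated genes, of which 13 were in the table and the other 5 were not analysed here. The table's genes there are the 10 neighbours, Lrp1, Inhbe and Nemp1, the last under its older symbol Tmem194. Several neighbours overlap on opposite strands, Ndufa4l2 and Shmt2 by 32 bp, Stat6 and Nab2 by 40 bp, Arhgap9 and Gli1 by 62 bp, and Nab2 and Nemp1 by 1668 bp. The sources used here do not say whether reads were counted by strand, so reads from these overlaps could not be told apart.

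The promoters of Lrp1, Shmt2 and Stat6 are shown because their start sites are close to the targeted gene, on either side of it. Each runs from 250 bases before to 50 after the RefSeq start site (GRCm38.p6), 5′ to 3′ on the gene's own strand. Capitals mark a match to a searched motif. The Lrp1 promoter is chr10:127621099-127621398 on the minus strand, the Shmt2 promoter chr10:127522395-127522694 on the minus strand and the Stat6 promoter chr10:127642736-127643035 on the plus strand.
Lrp1: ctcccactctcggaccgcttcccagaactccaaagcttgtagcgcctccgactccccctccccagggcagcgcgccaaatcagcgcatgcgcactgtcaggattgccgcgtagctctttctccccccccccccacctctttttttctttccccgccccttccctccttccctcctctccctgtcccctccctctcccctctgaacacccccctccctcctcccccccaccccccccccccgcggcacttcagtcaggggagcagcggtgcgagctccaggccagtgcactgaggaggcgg
Shmt2: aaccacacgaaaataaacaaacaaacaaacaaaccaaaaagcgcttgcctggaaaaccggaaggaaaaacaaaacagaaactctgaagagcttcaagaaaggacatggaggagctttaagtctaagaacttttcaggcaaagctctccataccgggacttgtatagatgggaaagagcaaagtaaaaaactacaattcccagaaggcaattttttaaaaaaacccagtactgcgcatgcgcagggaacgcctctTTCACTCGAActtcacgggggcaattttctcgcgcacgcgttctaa
Stat6: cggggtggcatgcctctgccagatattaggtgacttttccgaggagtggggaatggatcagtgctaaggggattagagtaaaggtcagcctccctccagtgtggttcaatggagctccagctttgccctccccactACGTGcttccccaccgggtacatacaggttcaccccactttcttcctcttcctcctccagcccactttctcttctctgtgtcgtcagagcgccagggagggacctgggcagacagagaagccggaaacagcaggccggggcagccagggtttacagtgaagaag

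Both strands were searched for 5 motifs in these promoters and in those of Nab2, R3hdm2 and Inhbc. The Shmt2 promoter held the STAT6-type motif, TTC and GAA with any 4 bases between them, which 6.95% of all 32851 RefSeq promoters hold. The Stat6 promoter and the first of 2 R3hdm2 promoters held the core of the hypoxia response element, ACGTG, which 19.6% of promoters hold. The EGR motif GCGTGGGCG (0.612% of promoters), the GLI motif GACCACCCA (0.253%) and the FoxO motif TGTTTAC (3.65%) were in none of them. These matches describe letters in a window and do not show that a factor binds there.

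**Figure D1:**
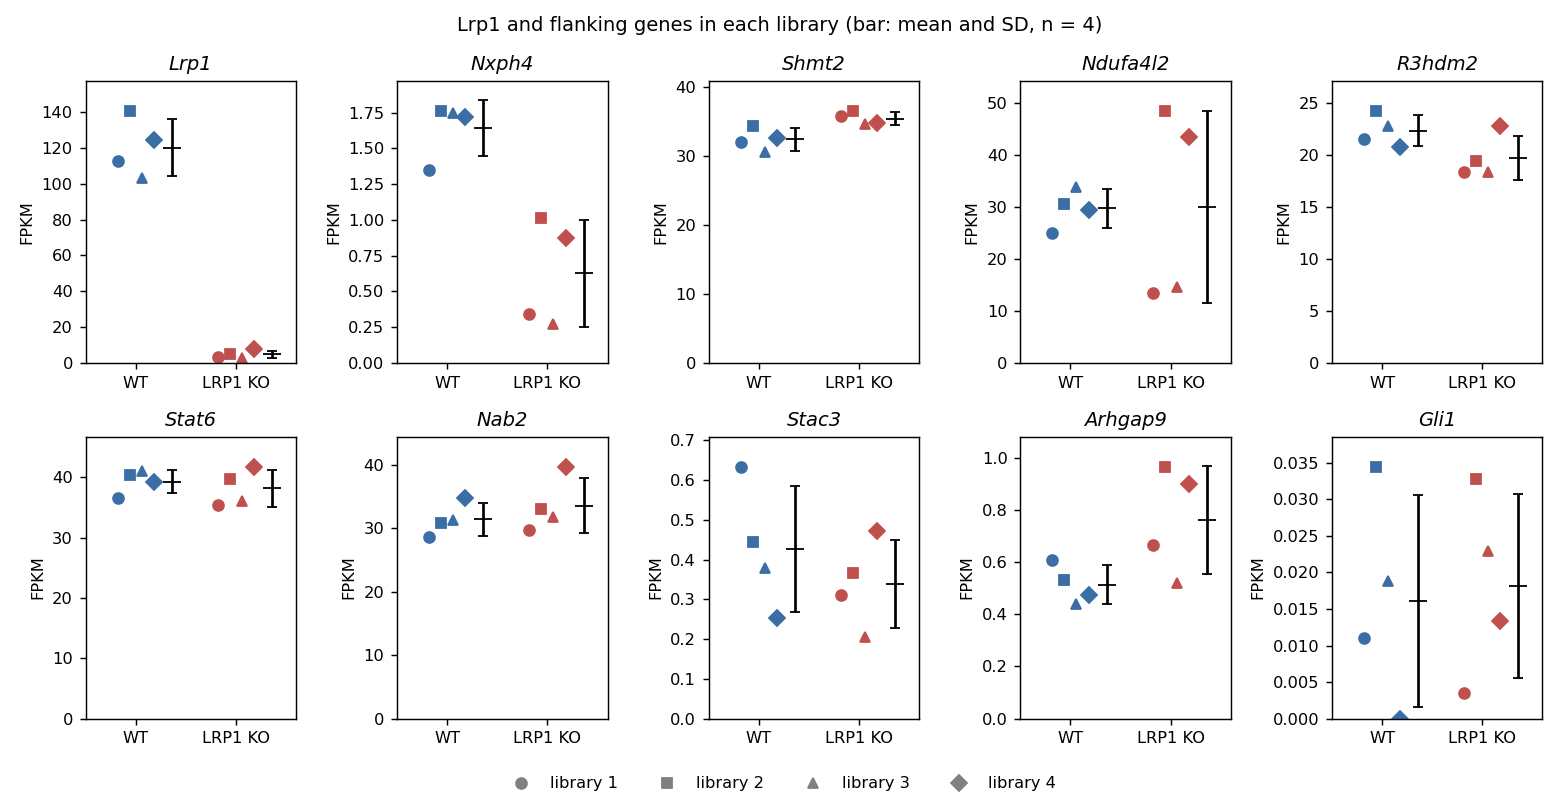
Expression of Lrp1 and 9 of its neighbours in each library, in FPKM on a linear axis from 0 that differs between panels; each point is 1 library, its shape gives the library number, and the bar is the group mean with SD (n = 4). Lrp1 and Nxph4 were lower and Shmt2 higher in every LRP1 KO library than in every WT library, while Ndufa4l2 in LRP1 KO split into 2 libraries below and 2 above the WT range; Inhbc, at 0 throughout, is not drawn.

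For Lrp1 itself, WT libraries 1 to 4 gave 113, 140, 103 and 124 FPKM, and the knockouts, in the same order, 3.45, 5.20, 2.79 and 7.72 FPKM. The groups were far apart, and LRP1 KO 4 kept the most Lrp1. The LRP1 KO mean was 3.99% of the WT mean, with a log2 difference of -4.45 on the log2(FPKM + 1) scale used throughout (SE 0.23, limma adjusted p = 8.89e-05).

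Nxph4 lies 3602 bp beyond the 3′ end of Lrp1, on the same strand, over chr10:127525473-127534559. Its level was low. WT libraries 1 to 4 gave 1.35, 1.76, 1.74 and 1.72 FPKM, and LRP1 KO libraries 1 to 4 gave 0.345, 1.02, 0.274 and 0.876 FPKM. All knockouts were below all WT libraries, and LRP1 KO 1 and 3 were lower than LRP1 KO 2 and 4. The means were 1.64 ± 0.196 and 0.628 ± 0.373 FPKM (SD, n = 4 each), so that LRP1 KO had 38.2% of the WT level. The log2 difference was -0.72 (SE 0.16, 95% interval -1.08 to -0.37, limma adjusted p = 0.0215). A pseudocount of 1 understates the change of a gene at this level, and with 0.1 the difference was -1.41 (SE 0.35, limma adjusted p = 0.0326). Nxph4 met the filter through its 4 WT libraries and LRP1 KO 2 alone, so its place among the tested genes rested mostly on the group where it was higher.

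The call on Nxph4 depended on single libraries, though its direction did not. It missed the threshold without WT 2 (-0.70, adjusted p = 0.0664 by limma), without WT 3 (-0.71, adjusted p = 0.0511), without LRP1 KO 1 (-0.64, adjusted p = 0.0625) and without LRP1 KO 3 (-0.62, adjusted p = 0.0567). Leaving out any 1 library except LRP1 KO 4 also cut the calls over all genes, from 1547 to between 433 and 989. A missed threshold in such a fit, here and below, is therefore common and not particular to the gene named. With the endothelial marker level as a covariate the Nxph4 difference was -0.44 (limma adjusted p = 0.399), and with the macrophage marker level -1.69 (limma adjusted p = 0.0681). Over all 16 alternatives the adjusted p ran from 0.00790 to 0.399. Expressed as a percent of the WT mean, Nxph4 in LRP1 KO libraries 1 to 4 was at 20.99%, 61.9%, 16.7% and 53.3%, and Lrp1 at 2.87%, 4.33%, 2.32% and 6.42%. Both genes were lowest in LRP1 KO 1 and 3. Summed endothelial markers were highest in those same libraries, and summed macrophage markers were 441 and 274 FPKM there against 657 and 593 in LRP1 KO 2 and 4. The part of these cell markers in the Nxph4 result was examined only with the covariates above. Summed macrophage markers did not overlap between the groups, so that covariate cannot separate their level from the knockout.

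The genes most like Nxph4 over the 8 libraries, by Pearson's r of log2(FPKM + 1), were not on chromosome 10. They were Ramp1 on chromosome 1 (r = 0.982), a receptor activity-modifying protein, Mlana on chromosome 19 (r = 0.982), a melanocyte protein, and Tmem8 on chromosome 17 (r = 0.980). Lrp1 had r = 0.913 with Nxph4, and 185 tested genes had a higher r. These values describe 8 libraries that fall into 2 groups, and any gene that separates the groups has a high r. Ramp1 fell from 2.78 ± 0.0374 to 1.30 ± 0.428 FPKM, Mlana from 21.3 ± 2.28 to 9.30 ± 3.54 FPKM and Tmem8 from 3.83 ± 0.207 to 2.53 ± 0.495 FPKM (SD, n = 4 each). Their log2 differences were -0.74, -1.17 and -0.46, with limma adjusted p-values of 0.00961, 0.0122 and 0.0246. These genes were picked for likeness to Nxph4, which was lower in every knockout, so their differences add no support. Tmem8 missed the threshold without WT 1, WT 2, WT 4, LRP1 KO 1 or LRP1 KO 3 (adjusted p = 0.0536 to 0.0761), and the other two passed whichever library was left out.

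**Figure D2:**
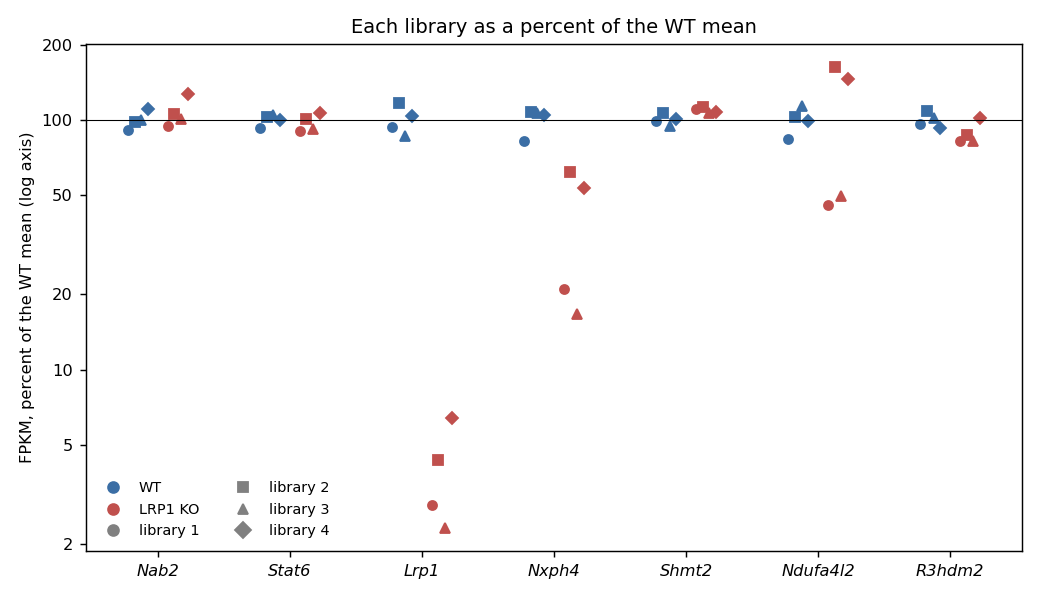
Level of Lrp1 and the 6 tested neighbours in each library as a percent of the WT mean, on a log axis, in chromosome order from the highest coordinates on the left to the lowest on the right; blue points are WT, red points LRP1 KO, and the shape gives the library number. Lrp1 was at 2.32% to 6.42% and Nxph4 at 16.7% to 61.9% in LRP1 KO, while Stat6, Nab2, Shmt2 and R3hdm2 lay between 82.0% (R3hdm2, LRP1 KO 1) and 126% (Nab2, LRP1 KO 4).

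Shmt2 is the next gene after Nxph4, 15717 bp from Lrp1 (chr10:127517123-127522444, minus strand). WT libraries 1 to 4 gave 32.0, 34.4, 30.5 and 32.6 FPKM, and the knockouts gave 35.8, 36.4, 34.5 and 34.8 FPKM. All knockouts exceeded all WT libraries, by a narrow margin between WT 2 and LRP1 KO 3. The means were 32.4 ± 1.597 and 35.4 ± 0.890 FPKM (SD, n = 4 each), a log2 difference of 0.13 (SE 0.05, 95% interval 0.01 to 0.24). By an exact two-sided permutation test p was 0.0286, as small as 4 against 4 libraries allow, but the limma adjusted p over all tested genes was 0.128 and the difference did not pass. It stayed positive and short of the threshold in all 16 alternatives.

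Ndufa4l2 lies 21007 bp from Lrp1 on the plus strand (chr10:127514967-127517154). WT gave 24.9, 30.6, 33.8 and 29.5 FPKM, against 13.5, 48.4, 14.7 and 43.5 FPKM from LRP1 KO libraries 1 to 4. LRP1 KO 1 and 3 were below every WT library and LRP1 KO 2 and 4 above every WT library, so the knockouts surrounded the WT range without entering it. The means were nearly equal, 29.7 ± 3.67 and 30.0 ± 18.5 FPKM (SD, n = 4 each), and the log2 difference was -0.20 (SE 0.39, 95% interval -1.07 to 0.67, limma adjusted p = 0.751). As a percent of the WT mean, LRP1 KO libraries 1 to 4 were at 45.6%, 163%, 49.5% and 146%. The interval reaches from a fall past 1 log2 unit to a rise of more than 0.5, so these libraries do not set the direction.

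Other measures divided the LRP1 KO libraries in the same way as Ndufa4l2. Nxph4 was higher in LRP1 KO 2 and 4, as were summed macrophage markers, and summed endothelial markers were lower there. The Y-linked gene Eif2s3y measured 32.0 and 35.9 FPKM for LRP1 KO 1 and 3, against 0.0640 and 11.99 FPKM for LRP1 KO 2 and 4. WT libraries 1 to 4 gave 14.3, 20.1, 10.1 and 0.05002 FPKM of Eif2s3y, so this gene varied within both groups. Cox4i2, a hypoxia-inducible subunit of cytochrome c oxidase, measured 1.23, 3.83, 2.56 and 3.16 FPKM in the knockouts and was lowest in LRP1 KO 1 and highest in LRP1 KO 2 (limma adjusted p = 0.523 between the groups). Summed pericyte and smooth muscle markers were 1629, 1376, 1550 and 1044 FPKM in LRP1 KO libraries 1 to 4, lower in LRP1 KO 2 and 4. Eif2s3y is named after its values were seen. With the macrophage marker level as a covariate the Ndufa4l2 difference was -2.66 (SE 0.54, limma adjusted p = 0.0898), and with the endothelial marker level 0.67 (SE 0.36, limma adjusted p = 0.553). These 2 covariates moved it in opposite directions, neither value passed, and the part of the other measures was not tested.

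R3hdm2, which encodes a protein with an R3H nucleic acid-binding domain, lies 38777 bp from Lrp1 on the plus strand (chr10:127380327-127499384). WT gave 21.6, 24.2, 22.8 and 20.8 FPKM, against 18.3, 19.5, 18.3 and 22.8 FPKM from LRP1 KO. LRP1 KO 1, 2 and 3 were below every WT library, and LRP1 KO 4 was inside the WT range. The means were 22.3 ± 1.49 and 19.7 ± 2.11 FPKM (SD, n = 4 each). With all libraries the log2 difference was -0.17 (SE 0.08, 95% interval -0.36 to 0.01, limma adjusted p = 0.163), with p = 0.114 by an exact permutation test. Without LRP1 KO 4 it was -0.24 and passed (limma adjusted p = 0.0299).

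On the other side of Lrp1, Stat6 begins 21838 bp from the Lrp1 start (chr10:127642986-127660957, plus strand). WT gave 36.6, 40.4, 41.0 and 39.2 FPKM, against 35.3, 39.7, 36.004 and 41.7 FPKM from LRP1 KO. The groups overlapped, with means of 39.3 ± 1.94 and 38.2 ± 3.04 FPKM (SD, n = 4 each), and the log2 difference was -0.04 (SE 0.07, 95% interval -0.19 to 0.11, limma adjusted p = 0.700). Nab2 lies 39770 bp from Lrp1 (chr10:127660918-127668568, minus strand). WT gave 28.5, 30.9, 31.3 and 34.8 FPKM, against 29.7, 33.1, 31.7 and 39.6 FPKM from LRP1 KO. These groups overlapped too, with means of 31.4 ± 2.58 and 33.5 ± 4.32 FPKM (SD, n = 4 each), and the log2 difference was 0.09 (SE 0.09, 95% interval -0.12 to 0.30, limma adjusted p = 0.536). The neighbour beyond it, Nemp1, which shares 1668 bp with Nab2, measured 2.17 ± 0.491 FPKM across WT and 1.85 ± 0.217 across LRP1 KO (SD, n = 4 each, log2 difference -0.14, limma adjusted p = 0.405).

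The remaining 4 neighbours were under 1 FPKM in every library and were compared only with the exact two-sided permutation test. Arhgap9, a GTPase-activating protein of blood cells, measured 0.609, 0.532, 0.441 and 0.474 FPKM across WT, against 0.665, 0.965, 0.520 and 0.901 FPKM across LRP1 KO. Most LRP1 KO libraries were higher, but LRP1 KO 3 fell within the WT range (exact permutation p = 0.0857). LRP1 KO 3 also had the lowest summed macrophage markers of the 4, and the part of blood cells in the Arhgap9 level was not tested. Stac3, an adaptor of the muscle calcium channel, measured 0.633, 0.445, 0.378 and 0.253 FPKM across WT, against 0.312, 0.367, 0.205 and 0.472 FPKM across LRP1 KO, with overlapping groups (exact permutation p = 0.4). Gli1 did not exceed 0.0345 FPKM in any library (exact permutation p = 0.8). Inhbc, an inhibin beta subunit made mainly by liver, was listed at 0 in all 8 libraries, and its neighbour Inhbe was listed at 0 in all but WT 4, at 0.00595 FPKM.

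In WT the order of the levels was Lrp1, Stat6, Shmt2, Nab2, Ndufa4l2, R3hdm2, Nxph4, Arhgap9, Stac3, Gli1 and Inhbc. Between genes next to each other in this order, the ranges over the WT libraries overlapped for Shmt2 and Nab2, Nab2 and Ndufa4l2, Arhgap9 and Stac3, and Gli1 and Inhbc, and did not overlap for the others.

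Across the 6 tested neighbours, 1 passed an adjusted p of 0.05, or 16.7%, while 13.6% of all 11389 tested genes did. Passing genes that were lower in LRP1 KO made up 7.31% of all tested genes and 1 of the 6 neighbours, and those that were higher made up 6.27% and, by limma, 0 of the 6 (1 at an unadjusted p under 0.05, Shmt2). The groups did not overlap in 2 of the 6, Nxph4 and Shmt2, and in 19.6% of all tested genes. Thus 1 call among 6 is close to the share over all genes, and it rests on Nxph4, which met the filter mostly through WT. Of the 5 neighbours at 1 FPKM or more in at least 2 libraries of each group, 0 passed, against 1454 of 11176 such genes in the whole table. The median log2 difference was -0.11 over the 6 neighbours and -0.01 over all tested genes. With a pseudocount of 1 no neighbour had both an adjusted p under 0.05 and a log2 difference of at least 1 in size, although Lrp1 did, and with a pseudocount of 0.1 Nxph4 met both (-1.41). The count of 1 became 0 without WT 2, WT 3, LRP1 KO 1 or LRP1 KO 3, and 2 without LRP1 KO 4, when R3hdm2 joined Nxph4.

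A wider window showed a similar share. Within 1 Mb of Lrp1, 76 other genes were in the table, 47 were tested and 7 passed (14.9%), of which 5 were lower and 2 higher in LRP1 KO. On chromosome 10 without Lrp1, 79 of 548 tested genes passed (14.4%). Within 250 kb 1 of 11 passed and within 100 kb 1 of 7, in both cases Nxph4, which met the filter mostly through WT. On the side of lower coordinates 4 of 20 passed, all lower, and on the other side 3 of 27 passed, of which 1 was lower and 2 higher. The difference between the sides was not tested.

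The 6 passing genes other than Nxph4 were all more than 250 kb from Lrp1. They are named after their values were seen, because they passed. Dtx3, a ubiquitin ligase gene, fell from 41.9 ± 3.58 to 34.2 ± 0.666 FPKM, Cdk4, a cell cycle kinase, from 397 ± 31.0 to 333 ± 14.3 FPKM, and Ctdsp2, a phosphatase gene, from 77.5 ± 7.46 to 58.4 ± 7.38 FPKM. Cnpy2, on the other side, fell from 93.6 ± 7.94 to 69.3 ± 9.14 FPKM, while Stat2 rose from 17.8 ± 1.33 to 26.7 ± 3.87 FPKM and Pa2g4 from 38.9 ± 2.44 to 46.0 ± 2.96 FPKM (SD, n = 4 each). The limma adjusted p-values of these 6 genes ran from 0.0148 for Stat2 to 0.0448 for Pa2g4, and the differences of 0.55 log2 units for Stat2 and -0.43 for Cnpy2 were the largest of the 6. Nxph4, at -0.72, changed more than any of them. Stat2 missed the threshold only without LRP1 KO 2 (0.52, limma adjusted p = 0.0531), and Dtx3 without LRP1 KO 1, 2 or 3 (adjusted p = 0.0615 to 0.0741). Cdk4, Ctdsp2, Cnpy2 and Pa2g4 missed it without WT 2 or LRP1 KO 1, 2 or 3, and each also without 1 or 2 other WT libraries (Cdk4 WT 1 and 3, Ctdsp2 and Pa2g4 WT 3 and 4, Cnpy2 WT 1), with adjusted p-values of 0.0565 to 0.131. The count of 7 became 3 without WT 2, 3 without WT 3, 1 without LRP1 KO 1, 1 without LRP1 KO 2, 1 without LRP1 KO 3 and 11 without LRP1 KO 4.

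**Figure D3:**
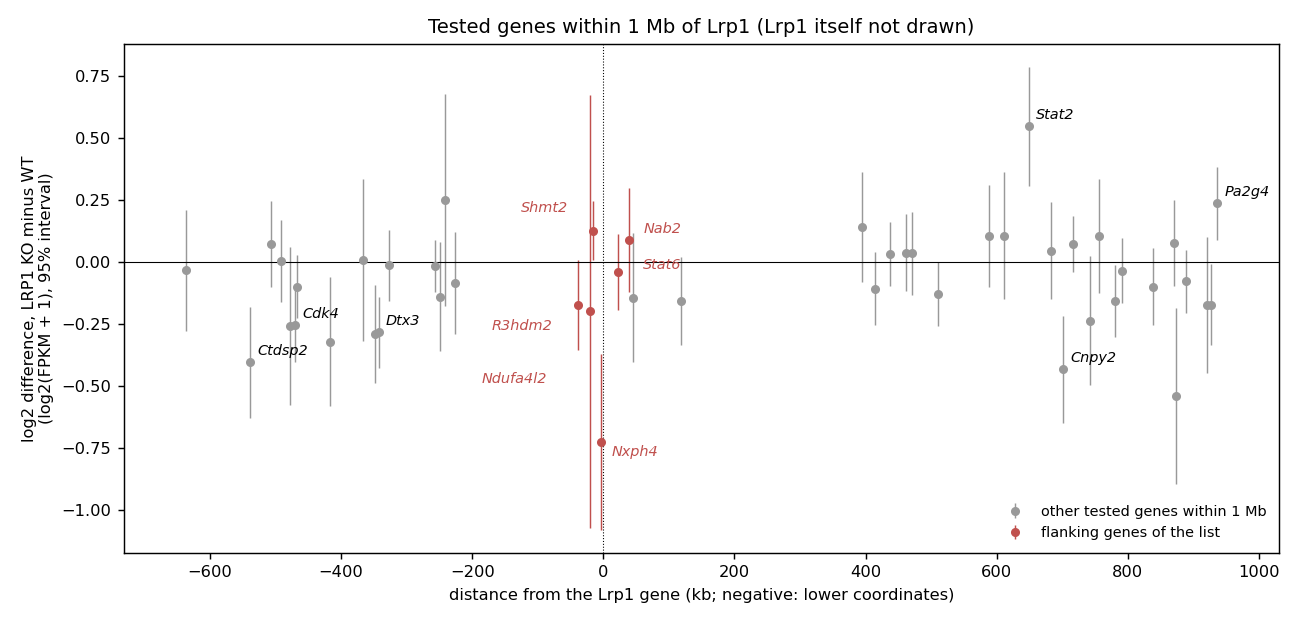
Log2 difference between LRP1 KO and WT, with its 95% interval, for the 47 tested genes within 1 Mb of Lrp1, against their distance from Lrp1 in kb. Red points are the 6 tested neighbours and named gray points are the other 6 genes with an adjusted p under 0.05; Nxph4, at -0.72, is the lowest point and Stat2, at 0.55, the highest.

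The pathways of the neighbours were described from lists of their partners, written by hand from general knowledge. Every count below stands beside the same background of 6.27% of tested genes higher and 7.31% lower. Among 18 tested JAK-STAT and interleukin-4 or interleukin-13 receptor genes, the partners of STAT6, 17 reached 1 FPKM in at least 2 libraries of each group, and of these 3 were higher in LRP1 KO and none lower. Over all genes that reached it so, 5.88% were higher. The median log2 difference over the 18 was 0.02. Il4ra, a subunit of the interleukin-4 receptor, rose from 14.8 ± 1.01 to 19.4 ± 2.92 FPKM (log2 difference 0.37, limma adjusted p = 0.0439). Stat2, given above, passed too. Il4ra missed without any 1 WT library or LRP1 KO 1 or 2 (adjusted p = 0.0707 to 0.113). The remaining gene of the 18, Ptpn6, a phosphatase of blood cells, measured 0.785 ± 0.341 FPKM across WT and 1.79 ± 0.633 across LRP1 KO, and since it met the filter through LRP1 KO and WT 4 alone its test is not read here.

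Only 2 interleukin-4-responsive macrophage genes were tested. Mrc1, the macrophage mannose receptor, measured 0.399 ± 0.209 FPKM across WT and 3.68 ± 1.77 across LRP1 KO (SD, n = 4 each). It met the filter only through the LRP1 KO libraries, where it was high, so its test is not read here. The same holds for 3 of the 9 tested leukocyte markers, and Mrc1 is also among the 14 tested macrophage markers, so these cell types are described by the summed levels given above. Of the pericyte and smooth muscle list 4 of 9 were higher and none lower, and no lymphocyte marker reached the filter. With the macrophage marker level as a covariate Il4ra was at -0.20, but summed macrophage markers did not overlap between the groups. This covariate raised the median SE over all tested genes from 0.0880 to 0.226, so it cannot separate macrophage content from the knockout. The part of macrophages in the Il4ra result was not tested.

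Around NAB2, 20 tested EGR, NAB and immediate-early genes included 5 that were higher and 1 that was lower, with a median log2 difference of 0.14. Jun rose from 11.7 ± 0.356 to 19.3 ± 1.65 FPKM (0.68, limma adjusted p = 0.000916), Atf3 from 4.46 ± 0.997 to 8.27 ± 0.887 FPKM (0.78, limma adjusted p = 0.00839) and Myc from 17.7 ± 1.08 to 26.4 ± 3.77 FPKM (0.54, limma adjusted p = 0.0121). These 3, transcription factors induced by growth signals and stress, passed whichever library was left out. Cyr61 rose from 144 ± 10.8 to 207 ± 33.4 FPKM, but missed the threshold without WT 1, 2 or 4 or LRP1 KO 1, 2 or 3 (adjusted p = 0.0551 to 0.0733). The lower gene, Btg2, an antiproliferative gene named after its value was seen, fell from 69.9 ± 3.71 to 54.3 ± 6.96 FPKM and passed in only 1 of 8 fits with a library left out, that without LRP1 KO 4 (adjusted p = 0.0536 to 0.0831 in the others). Egr1, the main partner of the NAB proteins and named after its value was seen, was at 24.1 ± 2.34 and 21.3 ± 2.58 FPKM (limma adjusted p = 0.245).

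Around NXPH4, only 3 of 10 measured neurexophilin, neurexin and neuroligin genes reached the filter. Nxph4 passed, but it met the filter mostly through WT, so the list count is not read here. Of the other 2, 0 passed. Nrxn2, which encodes a neurexin, the class of receptor that neurexophilins bind, measured 2.62 ± 0.570 FPKM across WT and 1.83 ± 0.287 across LRP1 KO (log2 difference -0.35, limma adjusted p = 0.0948).

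Around SHMT2, 19 tested enzymes and carriers of serine, glycine and folate metabolism included none that were higher and 3 that were lower, with a positive median of 0.11. Sfxn1, the mitochondrial serine carrier, fell from 29.7 ± 1.88 to 23.1 ± 1.82 FPKM and Aldh1l1, the formyltetrahydrofolate dehydrogenase, from 11.6 ± 2.95 to 6.37 ± 2.20 FPKM. Their log2 differences were -0.35 and -0.79, with limma adjusted p-values of 0.0156 and 0.0388. Shmt2, the other mitochondrial gene described, was among the members with a positive difference. Sfxn1 missed the threshold without WT 2 or LRP1 KO 1, 2 or 3 (adjusted p = 0.0506 to 0.0570) and Aldh1l1 without WT 1, 2 or 3 or LRP1 KO 1, 2 or 3 (adjusted p = 0.0623 to 0.108).

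Around NDUFA4L2, 24 tested hypoxia factors and targets included 6 that were higher and 1 that was lower, with a median of 0.13. The lower gene was Car9, a carbonic anhydrase of the cell surface, which fell from 4.90 ± 0.757 to 1.65 ± 0.579 FPKM (-1.17, limma adjusted p = 0.00302). P4ha1, a collagen prolyl hydroxylase, rose from 92.8 ± 8.91 to 130 ± 9.49 FPKM (0.49, limma adjusted p = 0.00788). The glycolytic genes Pgk1 and Ldha rose from 197 ± 10.5 to 295 ± 57.2 FPKM and from 388 ± 18.2 to 472 ± 35.5 FPKM (limma adjusted p = 0.0214 and 0.0294). Car9 and P4ha1 passed whichever library was left out, Pgk1 missed without WT 1 or 2 or LRP1 KO 1 or 2 (adjusted p = 0.0532 to 0.0679), and Ldha without WT 1, 2 or 3 or LRP1 KO 1, 2 or 3 (adjusted p = 0.0535 to 0.0929). Of the 14 tested genes of the NDUFA4 family and cytochrome c oxidase, Ndufa4l2 included, none passed by limma, and none had an unadjusted p under 0.05 either.

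Around STAC3, 7 excitation-contraction genes of muscle were tested. Jph2, a junctophilin, rose from 6.54 ± 0.451 to 10.3 ± 1.61 FPKM (limma adjusted p = 0.0110), and Cacnb1, a calcium channel subunit, fell from 3.68 ± 0.520 to 2.30 ± 0.148 FPKM (limma adjusted p = 0.0117). Stac, a relative of Stac3, measured 1.44 ± 0.245 FPKM across WT and 0.774 ± 0.203 across LRP1 KO, and since it met the filter only through WT, where it was higher, neither its test nor the list count is read here. Of 4 tested R3H domain genes none passed by limma, and 1 had an unadjusted p under 0.05. In 2 of these genes the groups did not overlap, R3hdm4 (32.2 ± 3.46 and 27.3 ± 1.72 FPKM, limma adjusted p = 0.0901) and R3hdm1 (8.29 ± 0.170 and 8.86 ± 0.244 FPKM, limma adjusted p = 0.300).

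Around INHBC, 14 tested genes of activin and inhibin signaling included 3 that were higher and none that were lower, with a median of 0.03. All 3 encode inhibitors, but they are named because they passed, and the list was not divided by function. Fst, which encodes follistatin, a protein that binds and blocks activin, rose from 3.72 ± 0.361 to 13.1 ± 6.28 FPKM (1.45, limma adjusted p = 0.0195), its relative Fstl3 from 21.4 ± 1.46 to 32.9 ± 2.47 FPKM (0.60, limma adjusted p = 0.00183), and Smad7, an inhibitory SMAD, from 18.2 ± 0.782 to 24.6 ± 2.20 FPKM (0.42, limma adjusted p = 0.00963). Fst missed the threshold without WT 2 or LRP1 KO 2 or 3 (adjusted p = 0.0583 to 0.0618).

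Around GLI1, 12 tested hedgehog genes included none that were higher and 3 that were lower, with a median of -0.09. Gas1, a hedgehog co-receptor, fell from 108 ± 7.09 to 78.0 ± 12.6 FPKM, Gli2, a transcription factor of the GLI family, from 3.38 ± 0.317 to 2.23 ± 0.382 FPKM, and Smo, the signal transducer of the pathway, from 26.5 ± 1.23 to 21.2 ± 2.003 FPKM (SD, n = 4 each). Their limma adjusted p-values were 0.0239, 0.0245 and 0.0257. Each missed the threshold without 6 of the 8 libraries in turn, those being LRP1 KO 1, 2 and 3, WT 2 and 3, and WT 1 for Gas1 or WT 4 for Gli2 and Smo (adjusted p = 0.0522 to 0.0801). Hedgehog genes are also expressed in fibroblasts, and of the fibroblast marker list 1 of 12 tested genes was higher and 2 lower, with a median of -0.28, and 1 was higher and 6 lower without LRP1 KO 4. The part of fibroblast content in the hedgehog result was not tested.

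Around ARHGAP9, only 4 of 13 measured leukocyte GTPase regulator genes reached the filter. Dock8, an exchange factor of blood cells, fell from 10.8 ± 0.946 to 7.24 ± 1.04 FPKM (-0.52, limma adjusted p = 0.0138) and passed whichever library was left out. The other 3 did not pass. Of the 9 genes under the filter, 6 were higher in every LRP1 KO library than in every WT library, with means of 0.0617 to 0.327 FPKM in WT against 0.405 to 1.22 in LRP1 KO. Among all genes under the filter with a value above 0, 5.38% were likewise higher in every LRP1 KO library than in every WT library. Summed macrophage and leukocyte markers moved with these 6 genes, and their part was not tested.

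Where no gene of a list passed in a direction, genes at an unadjusted p under 0.05 in the same limma fit were 3 lower JAK-STAT genes, 4 lower activin genes, 6 higher one-carbon genes, 1 higher hedgehog gene, and none among lower pericyte markers, or higher leukocyte GTPase regulator and neurexophilin list genes. Over all tested genes, 15.5% were higher and 18.2% lower at that unadjusted p.

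The endothelial list shows how far LRP1 KO 4 weighed, with 1 of its 17 tested genes higher in the full set and 15 without that library. Cdh5, which encodes VE-cadherin and is named after its values were seen, measured 8.98, 9.31, 11.2 and 8.87 FPKM across WT, against 47.3, 21.5, 33.9 and 8.56 FPKM across LRP1 KO, so that LRP1 KO 4 was below every WT library and the other 3 above. Without LRP1 KO 4, 26.2% of all tested genes passed, against 13.6% with it, and 25.7% of those at 1 FPKM or more in at least 2 libraries of each group. Among the latter, passing genes became 6 in the JAK-STAT list, 9 in the EGR list, 9 in the hypoxia list, 7 in the activin list, 5 in the hedgehog list, 7 in the fibroblast list and 6 in the pericyte and smooth muscle list.

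**Figure D4:**
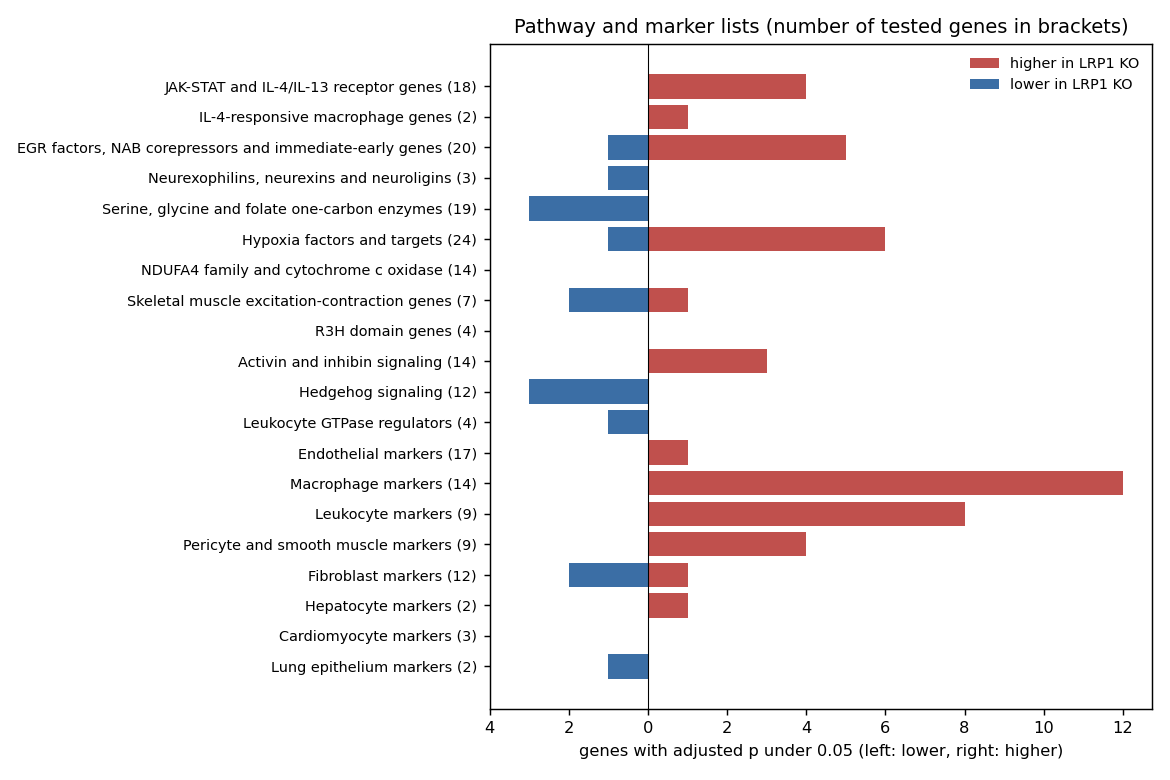
Number of genes with an adjusted p under 0.05 in each pathway or marker list with at least 2 tested genes, drawn to the right for genes higher and to the left for genes lower in LRP1 KO. The bars of the macrophage, leukocyte, interleukin-4-responsive, JAK-STAT, neurexophilin and skeletal muscle lists include genes that met the filter wholly or mostly through 1 group and are not read. Of the other pathway lists the hypoxia list has 6 higher and 1 lower.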

How the data were processed

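Gene expression was measured by RNA sequencing (Illumina TruSeq libraries) in 4 WT and 4 LRP1 KO libraries, grouped by their titles. The authors deposited 1 table of 22520 genes whose unit was inferred to be FPKM, quantile normalized by the authors across libraries. Column sums were 503571 to 504112 and the highest value was the same in each, so that depth is unknown and no counting error was computed. The submitters' processing notes name TopHat2, Cufflinks and mm10, whereas the study's methods describe STAR and featureCounts. The header settles neither the unit nor the pipeline.

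The 11389 genes that reached an FPKM of 1 in 4 or more libraries were fitted as log2(FPKM + 1) with the group as the only term, using limma 3.58.1 (R 4.3.3) with a variance trend. P-values were adjusted by the Benjamini-Hochberg method over all tested genes, and the fit was tested on simulated data. Since the values were not counts, no count test was run. Single genes were compared with the exact two-sided permutation test over 70 splits. GENCODE M21 placed 21740 genes. RefSeq promoters matched 5 of the 10 neighbours and Lrp1. The genes and lists were chosen with earlier results of these data known. Genes named are Lrp1, its 10 neighbours, table genes between them, the 3 most like a passing neighbour and, per list, at most 4 with the smallest p. Others are said to be named after their values were seen. Some genes that the rule covers are not reported here. Alternatives changed the pseudocount, filter, scaling, block, variance trend, library weights, marker covariates, window and each library in turn.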

Additional observations from a re-analysis of the deposited data

Results flagged for a closer look

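In 6 of 97 groups of 4 libraries examined, 1 library stood apart from the other 3, where chance alone is expected to set apart about 1 in 20 groups. Nxph4 was 1.35 FPKM in WT 1, below the other WT libraries at 1.72 to 1.76, and still above every LRP1 KO library. Ptpn6 was 1.29 FPKM in WT 4, against 0.568 to 0.643 in the other WT libraries. Inhbe was 0.00595 FPKM in WT 4 and listed at 0 in the others. Stat2 was 20.9 FPKM in LRP1 KO 1, against 28.0 to 29.0 in the other LRP1 KO libraries. Sfxn1 was 25.8 FPKM and Aldh1l1 9.62 FPKM in LRP1 KO 4, against 21.8 to 22.4 and 4.82 to 5.63 FPKM in the other LRP1 KO libraries, which put both nearer to WT in that library.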

How the results depend on the processing

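Lrp1 stayed lower and past the threshold in all 16 alternatives, from -5.78 to -3.88. Over single results and counts, 552 of 770 alternatives kept direction and side of the threshold, or a count within 1.5 times, while 178 lost the threshold, 3 gained it, 26 moved and 11 reversed. The count of 1 passing neighbour became 0 with the macrophage covariate and 0 with the endothelial covariate, and ran from 0 to 2 with a library left out. The count of 7 within 1 Mb became 4 with no filter on low values, 0 with the macrophage covariate, 1 with the endothelial covariate, 1 within 250 kb, 1 within 100 kb and 1 to 11 with a library left out. The 61 passing list genes, of which 8 met the filter wholly or mostly through 1 group, became 96 with library weights, 0 with the macrophage covariate, 23 with the endothelial covariate and 32 to 96 with a library left out. Summed macrophage markers did not overlap between the groups, and this covariate raised the median SE from 0.0880 to 0.226. Ndufa4l2 was at -2.66 with the macrophage covariate, against -0.20. Signs reversed for Ndufa4l2 (0.67 with the endothelial covariate, 0.092 without LRP1 KO 1, 0.055 without LRP1 KO 3, range -0.50 to 0.092 with a library left out), Stat6 (0.083, endothelial covariate), Nab2 (-0.0067 with library weights, -0.21 with the macrophage covariate), Il4ra (-0.20) and Cox4i2 (-0.34) with the macrophage covariate, and Eif2s3y (-0.57 with the endothelial covariate, -0.43 without WT 4, -0.027 without LRP1 KO 3, range -0.43 to 1.68 with a library left out). The cause of each change was not tested. Over all genes, calls numbered 1547, 1163 with no filter, 1013 with the replicate block, 3003 with library weights, 172 with the endothelial covariate, 7 with the macrophage covariate and 433 to 2959 with a library left out. Libraries of the 2 groups share only a number. The deviations of same-numbered libraries from their group means correlated at 0.158, 0.141, 0.340 and -0.312, and 5 of 8 libraries correlated best with their own number. With the replicate block the passing neighbours were 1, those within 1 Mb 5 and the list genes 53, with Nxph4 at an adjusted p of 0.0339 by limma. Rescaling the libraries gave 780 higher and 769 lower calls against 714 and 833. FPKM without depth limits what can be said of genes under 1 FPKM.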
